A study of Mus musculus with 18 samples.

Results

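The genes described here are the 3 polypyrimidine tract binding proteins Ptbp1, Ptbp2 and Ptbp3 and 7 splicing regulators typical of neurons and endocrine cells: Srrm3, Srrm4, Rbfox2, Nova1, Nova2, Elavl4 and Celf4. They were found by gene symbol, and all 10 of the 10 symbols had a row among the 55487 genes of each deposited count table. The set was selected on measured values: a lower level of Ptbp1, with a higher one of Ptbp2, had been seen in cells with an shRNA against Smndc1. The values of that first experiment are therefore a description without a test. The second experiment is tested, but the members and the gene lists read below were chosen with earlier results of these data known. Its tests may therefore not be independent of that choice. The question is whether a lower Ptbp1 comes with a shift of its paralogs and of the neuroendocrine splicing factors.

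RNA was measured in alphaTC1 cells, an established mouse line of glucagon-producing pancreatic alpha cells, by paired-end sequencing of 75 base reads. In experiment 1, cells were transduced with an empty vector (EV, 3 libraries) or with an shRNA against Smndc1, a splicing factor (shSmndc1, 3 libraries), and collected after 5 days. In experiment 2, all cells also received RIP-mCherry, in which a rat insulin promoter drives a red fluorescent protein. Its groups were empty vector (EV_RIP, 4 libraries) and shRNA cells sorted as mCherry-negative (shSmndc1_RIP_neg, 4 libraries) or mCherry-positive (shSmndc1_RIP_pos, 4 libraries). No day is labelled for experiment 2, and whether the EV_RIP cells passed through a sorter is not said either. All groups share the transduction and the line. The shRNA is a single agent, so the data hold no second hairpin to set beside it. Since no label names separate cultures, a p-value here sets a difference against the scatter of these libraries only, and that scatter may be technical.

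PTBP1 binds pyrimidine-rich RNA and, in most cells other than neurons, keeps neuronal exons out of mRNA. It makes the cell skip a short exon of Ptbp2, which shifts the reading frame and sends that RNA to nonsense-mediated decay, and it lowers its own RNA through the matching exon. PTBP1 gives way to PTBP2 as progenitors become neurons. Pancreatic endocrine cells share much of the neuronal splicing programme, in which SRRM3 and SRRM4 promote microexons and the RBFOX, NOVA, ELAVL and CELF proteins bind their own short motifs.

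The exon through which the paralogs regulate each other is 34 bases long in all 3 genes, and it is shown as background on the paralogs, since its use in these cells was not measured. The sequences are from the GENCODE annotation of GRCm38, 5′ to 3′ on the coding strand, with each TCTT, a pyrimidine motif that PTBP1 is known to bind, in capitals.
Ptbp1, exon 9 of 13, chr10:79862014-79862047, plus strand: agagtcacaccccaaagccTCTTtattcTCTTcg
Ptbp2, exon 10 of 14, chr3:119724612-119724645, minus strand: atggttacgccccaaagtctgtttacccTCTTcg
Ptbp3, exon 10 of 14, chr4:59485339-59485372, minus strand: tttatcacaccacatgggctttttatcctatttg
In each gene the exon was picked by this length and by the 4 exons that follow it, so neither is a finding. Ptbp1 and Ptbp2 were identical at 26 of the 34 bases, Ptbp1 and Ptbp3 at 22, and Ptbp2 and Ptbp3 at 21. TCTT, searched on the coding strand only, occurred 2 times in the Ptbp1 exon, 1 time in the Ptbp2 exon and 0 times in the Ptbp3 exon. Of 256 distinct coding exons of the same length in the annotation, 35 held it (13.7%). Pyrimidines made up 64.7% of the exon in Ptbp1 and in Ptbp2 and 67.6% in Ptbp3, against a median of 44.1% over those 256 exons. Leaving the exon out of the annotated transcripts put a stop codon in the next exon of all 3 genes, 361 bases before the last exon junction. That stop came after 313 of 489 codons in Ptbp1, 356 of 532 in Ptbp2 and 347 of 523 in Ptbp3. These codons and the exon numbers are those of the transcripts Ptbp1-202, Ptbp2-201 and Ptbp3-201, and other transcripts differ. The exon was present in 4 of 16 annotated transcripts of Ptbp1, 3 of 13 of Ptbp2 and 9 of 13 of Ptbp3. The deposited tables give 1 value per gene, so how often the exon was used in these cells was not analysed here. Identity was also taken over the longest consensus coding sequence of each gene (1665 bases in Ptbp1, 1596 in Ptbp2 and 1653 in Ptbp3). It was 67% (Ptbp1 and Ptbp2), 71.6% (Ptbp1 and Ptbp3) and 66.6% (Ptbp2 and Ptbp3). No stretch of 75 bases was shared between any pair of the 10 genes.

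Levels below are CPM, counts scaled to a common library size by TMM, a scale that corrects for library composition, unless FPKM is named. Library totals ranged from 8084600 counts (shSmndc1_RIP_neg 3) to 103050000 (EV_RIP 2). Smndc1, the target, averaged 39.1 ± 3.54 CPM in EV and 10.2 ± 0.545 in shSmndc1 (SD, n = 3 each). In experiment 2 it fell in positive cells, from 44.5 to 20.1 CPM (log2 fold change -1.15, edgeR adjusted p = 0.00384). In the libraries labelled shSmndc1_RIP_neg it read 23.9, 43.4, 36.3 and 44.6 CPM, overlapping EV_RIP (37.6 to 54.9), and the difference did not pass (log2 fold change -0.27, edgeR adjusted p = 0.378). A knockdown is therefore not shown at the RNA level in those libraries. Libraries 3 and 4 labelled shSmndc1_RIP_neg also stood apart in Rn7sk, a small nuclear RNA, at 161 and 45.4 CPM against 2.44 to 18.6 elsewhere. Of 7 alpha cell markers 6 averaged over 1 CPM in every group, with Gcg, the glucagon gene, at 5110 to 16000 CPM. Markers of other cell types were mixed. Pdx1, Sst, Ptf1a, Lum and Ptprc, from the lists of beta, delta, acinar, fibroblast and blood cell markers, averaged at most 0.165 CPM in any group. Others of the same lists were expressed in every group: Nkx6-1 (beta) averaged 45.1 to 66.6 CPM, Cela1 (acinar) 7.05 to 16.1, Csf1r and Cd68 (leukocyte) 10 to 17.5 and 7.55 to 13.6, and Col1a2 (fibroblast) 4.32 to 8.45. Their part in the results was not tested. Of 7 neuron markers 4 averaged over 1 CPM, and their sum lay between 47.5 and 269 CPM per library, most of it Nefm, a neurofilament gene, which averaged 55 CPM in shSmndc1 and 121 to 174 in the other groups. By group that sum was 124 to 196 CPM in EV, 47.5 to 83.6 in shSmndc1, 92.4 to 269 in EV_RIP, 99.2 to 165 in the libraries labelled shSmndc1_RIP_neg and 155 to 195 in positive cells. It was thus lower in every shSmndc1 library than in EV, and its part in the results was not tested. Slc17a6, which defines glutamatergic neurons, averaged at most 0.0294 CPM. In bulk RNA, fewer cells of a type and less RNA per cell cannot be told apart.

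Against EV_RIP, 2 of the 9 tested genes rose in positive cells (Ptbp2 and Nova2) and 4 fell (Ptbp1, Rbfox2, Nova1 and Celf4), where 17.4% of all 18897 genes passed edgeR's quasi-likelihood test with Benjamini-Hochberg adjustment, 8.47% higher and 8.92% lower. The groups did not overlap for 5 of the 9 genes, 2 higher and 3 lower, against 23.4% of all genes (11.7% each way). The median size of the change without regard to sign was 0.42 on the log2 scale for the 9 genes and 0.31 for all genes, and the signed medians were -0.07 and 0. In the libraries labelled shSmndc1_RIP_neg 1 of 9 rose (Nova2) and 0 fell in edgeR, as in DESeq2, against 13.9% of all genes (8.17% higher and 5.69% lower). At an unadjusted p under 0.05 Srrm3 was added upward and no gene downward, and the share of all genes at that cut is not given here. Nova2 was also the 1 gene of the 9 whose groups did not overlap, against 14.4% of all genes (7.24% higher and 7.2% lower). Without libraries 3 and 4 of that group, 0 of the 9 genes passed, and 4 genes in all.

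In experiment 1, whose values led to the choice of the set, 1 of the 9 was past the threshold upward (Ptbp2) and 3 downward (Ptbp1, Nova1 and Celf4), against 14.7% of all 18202 genes (7.22% higher and 7.5% lower). Because those values chose the set, these counts are no test of it and nothing is read from them. The groups of experiment 1 did not overlap for 5 of the 9 (Ptbp2 higher, and Ptbp1, Rbfox2, Nova1 and Celf4 lower), against 39.5% of all genes (19.7% higher and 19.8% lower). Between positive and negative cells without pairing 0 of the 9 passed, and Celf4 alone did not overlap, against 6.58% of all genes (3.33% higher and 3.25% lower). Ptbp1, Elavl4 and Celf4 had an unadjusted p under 0.05 there, as did 12.2% of all genes. DESeq2 called 1 of the 9, Ptbp1, and its calls over all genes are given below.

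Ptbp1 (ENSMUSG00000006498, GRCm38 chromosome 10, 79854427 to 79864771, plus strand) differed most of the 3 paralogs in shSmndc1 and in positive cells, and least in the libraries labelled shSmndc1_RIP_neg. In experiment 1 its level was 279, 295 and 223 CPM in EV and 149, 138 and 99.5 in shSmndc1. Every shSmndc1 library lay below every EV library, and the mean was 2.07-fold lower (log2 fold change -1.05, SE 0.18). In experiment 2 EV_RIP read 260, 267, 234 and 284 CPM, and positive cells read 139, 158, 154 and 203. All 4 positive libraries lay below all 4 controls. Ptbp1 fell 1.6-fold in positive cells (log2 fold change -0.68, SE 0.14, edgeR adjusted p = 0.0084).

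The libraries labelled shSmndc1_RIP_neg read 201, 282, 310 and 286 CPM of Ptbp1. Only replicate 1, which also had the least Smndc1 of that group, was below the controls. The group did not differ from EV_RIP past the threshold (log2 fold change 0.05, 95% interval -0.26 to 0.35, edgeR adjusted p = 0.85). Without libraries 3 and 4 it was -0.12. Both comparisons share the 4 EV_RIP libraries.

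Positive and negative cells were then compared directly. Without pairing, Ptbp1 differed by -0.72 on the log2 scale (SE 0.14, edgeR adjusted p = 0.127), and none of 18897 genes passed (0%), although 2314 had an unadjusted p under 0.05 (12.2%). DESeq2 called 110 genes higher and 205 lower. Deviations across genes in negative and positive libraries of the same number had correlations of 0.62, 0.35, 0.14 and 0.31. Negative 2 with positive 4, of unlike number, reached 0.28, so the pairing is uncertain, most of all for number 3. With the number as a block over all 12 libraries the adjusted p for Ptbp1 was 0.0438 in edgeR. In a paired fit of the 8 sorted libraries alone, chosen after seeing the data, Ptbp1 fell by 0.72 (SE 0.1, edgeR adjusted p = 0.00102) and was lower in positive cells in 4 of 4 pairs. From pairs 1 and 2 alone it was -0.67 (edgeR adjusted p = 0.0561).

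**Figure D1:**
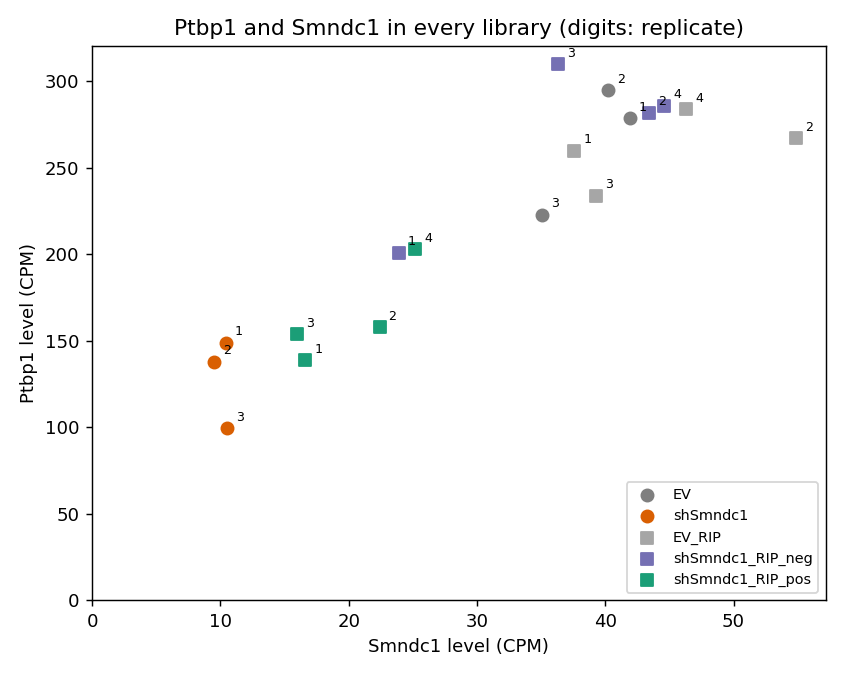
Level of Ptbp1 (vertical axis, CPM) against that of Smndc1 (horizontal axis, CPM) in each of 18 libraries; colours are groups, circles experiment 1, squares experiment 2 and digits replicates. Replicate 1 labelled shSmndc1_RIP_neg (23.9 CPM of Smndc1, 201 of Ptbp1) lies beside positive replicate 4 (25.2 and 203), apart from the 3 other libraries of its group.

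The plot of Ptbp1 against Smndc1 shows 2 clusters of libraries, so no correlation over all of them is given. In shSmndc1 and in positive cells both genes lay below every empty-vector library of the same experiment. Of the mCherry-negative libraries only replicate 1 lay below the controls in both. Negative replicate 3, at 36.3 CPM of Smndc1 against at least 37.6 in EV_RIP, had the most Ptbp1 of its group (310 CPM). This is a description of single libraries and was not tested.

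Ptbp2 (ENSMUSG00000028134, chromosome 3, 119718742 to 119784466, minus strand), the neuronal paralog that PTBP1 holds down, moved the other way. In experiment 1 it read 47.2, 63 and 54.9 CPM in EV and 79.3, 82.4 and 70.5 in shSmndc1. The groups did not overlap, and the mean was 1.41-fold higher (log2 fold change 0.49, SE 0.13). The second experiment gave 53.4, 62.6, 59.6 and 69.1 CPM in EV_RIP together with 84.2, 82.9, 73.1 and 77.1 CPM in positive cells. Again no positive library overlapped a control. Ptbp2 rose 1.3-fold in positive cells (log2 fold change 0.37, SE 0.12, edgeR adjusted p = 0.0437). That call was close to the threshold: it was lost on leaving out any 1 library other than EV_RIP 2 or 4, with log2 fold changes of 0.33 to 0.44 over all 8 omissions and adjusted p up to 0.105. The libraries labelled shSmndc1_RIP_neg spanned both groups at 78.2, 60.1, 83.8 and 66.3 CPM (log2 fold change 0.23, SE 0.12, edgeR adjusted p = 0.187). Positive and negative cells differed by 0.15 in the paired fit (SE 0.1, edgeR adjusted p = 0.385).

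Ptbp3 (ENSMUSG00000028382, chromosome 4, 59471868 to 59549364, minus strand), the paralog known from blood cells, gave no difference against its controls that passed. It read 420, 503 and 515 CPM in EV and 536, 484 and 485 in shSmndc1, with overlapping groups (log2 fold change 0.07, SE 0.13). In experiment 2 it varied widely within groups. EV_RIP read 287, 220, 387 and 372 CPM, the libraries labelled shSmndc1_RIP_neg 397, 160, 215 and 172, and positive cells 483, 244, 268 and 207. Replicate 1 was the highest of its group on both sides of the sort. Against EV_RIP the interval in positive cells ran from -0.72 to 0.57 on the log2 scale (estimate -0.07, edgeR adjusted p = 0.887). It ran from -1.07 to 0.22 in the libraries labelled shSmndc1_RIP_neg (estimate -0.42, edgeR adjusted p = 0.344), which reached -0.8 without replicate 1 (edgeR adjusted p = 0.0318). Within pairs Ptbp3 was higher in positive cells in 4 of 4 (log2 fold change 0.37, SE 0.09, edgeR adjusted p = 0.0215 in the paired fit), and from pairs 1 and 2 alone the estimate was 0.46 (edgeR adjusted p = 0.146).

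FPKM, which divides by gene length, allows the paralogs to be set side by side. The lengths implied by the deposited FPKM were 3.45 kb for Ptbp1, 4.91 for Ptbp2 and 7.25 for Ptbp3. Their annotated exons cover 4740, 9175 and 7480 bases, so orders, shares and ratios between genes depend on the length used. The fold by which a ratio differs between libraries does not depend on it. In EV, Ptbp1 (76.7 ± 11.1 FPKM, SD, n = 3) and Ptbp3 (65.8 ± 7.35) overlapped, and Ptbp2 was at 11.1 ± 1.67. In shSmndc1 the order by deposited FPKM was Ptbp3 (68.3 ± 4.46), Ptbp1 (36.8 ± 7.71) and Ptbp2 (15.6 ± 1.38), with no overlap between neighbours. The ratio of Ptbp1 to Ptbp2 in FPKM was 8.44, 6.68 and 5.79 in EV and 2.67, 2.38 and 2.01 in shSmndc1. In experiment 2 it was 6.93, 6.08, 5.59 and 5.85 in EV_RIP, while positive cells had 2.35, 2.72, 3 and 3.75. The libraries labelled shSmndc1_RIP_neg gave 3.66, 6.68, 5.27 and 6.15, so that replicate 1 lay with the positive cells and the others near the controls. Ptbp1 stayed the more abundant of that pair in all 18 libraries. The sum of the 3 genes averaged 154 FPKM in EV, 120 in shSmndc1, 131 in EV_RIP, 124 in the libraries labelled shSmndc1_RIP_neg and 105 in positive cells. The share of Ptbp2 in it was 7.23%, 12.9%, 9.46%, 11.6% and 15.5% in the same order, and that of Ptbp1 49.8%, 30.3%, 57.7%, 62.6% and 45.8%.

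**Figure D2:**
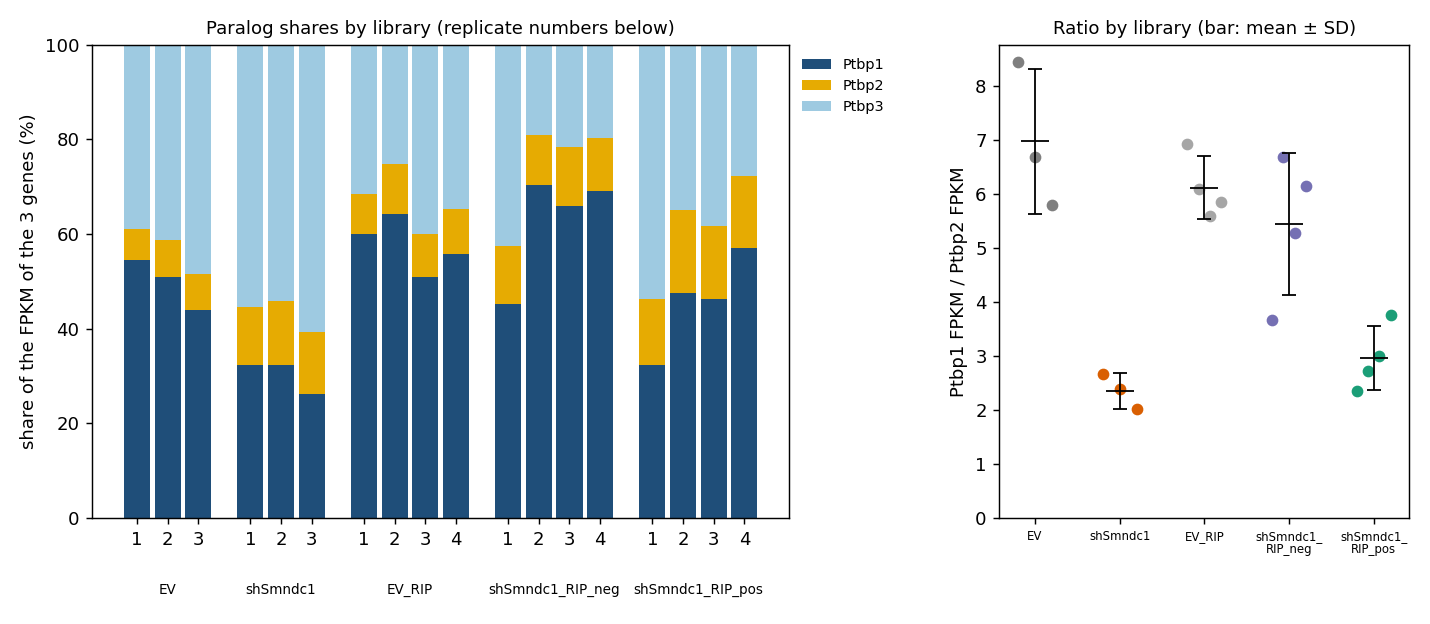
Left, share of the summed FPKM of the 3 paralogs in each library (stacked bars, %), by group and replicate. Right, ratio of Ptbp1 to Ptbp2 FPKM (points are libraries, bars mean ± SD): shSmndc1 and positive cells sit between 2.01 and 3.75, below every empty-vector library (5.59 to 8.44).

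Reads of Ptbp1 cannot be wholly separated from those of its neighbours, because the strand setting of the counting is not given in the sources used here. Gm17134, an antisense gene that lies entirely within Ptbp1 exons, covers 9.22% of them. Its counts were 5.58 to 8.37% of those of Ptbp1 and followed it, with 8.46 to 14.5 CPM in positive cells and 14.2 to 18 in EV_RIP. E130317F20Rik shares 6.22% and Plppr3 5.3% of the exonic bases of Ptbp1 on the opposite strand, which is 8.21% and 5.76% of their own. Their counts were larger, at 11.9 to 20% and 9.72 to 13.3% of those of Ptbp1. They too were lower in positive cells (21.4 to 30 and 13.8 to 19.7 CPM) than in EV_RIP (31.8 to 43.5 and 23.7 to 27.9). How many reads were shared was not tested. Ptbp1 also shares 1.73% of its stretches of 75 bases with Gm4900. Ptbp2 shares no exonic base or such stretch with another gene, and 1700018M17Rik overlaps 2.77% of Ptbp3.

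Srrm3 (ENSMUSG00000039860, chromosome 5, 135806890 to 135874772, plus strand) and Srrm4 (ENSMUSG00000063919, chromosome 5, 116439275 to 116591817, minus strand) promote the inclusion of microexons. Only Srrm3 was measurable. It read 34.6, 22.5 and 24.5 CPM in EV and 28.3, 30 and 43 in shSmndc1, with overlap (log2 fold change 0.31, SE 0.21). Experiment 2 gave 26.9, 35.1, 26.3 and 21.9 in EV_RIP, 26.8, 38.9, 39.3 and 41.5 in the libraries labelled shSmndc1_RIP_neg, and 24.3, 35.5, 38.1 and 38.6 in positive cells. Both sorted groups reached above the controls in 3 of 4 libraries, while replicate 1 of each did not. Neither difference passed: 0.41 on the log2 scale for the libraries labelled shSmndc1_RIP_neg (SE 0.18, edgeR adjusted p = 0.137; 0.53 and 0.0368 without replicate 1) and 0.31 for positive cells (95% interval -0.08 to 0.7, edgeR adjusted p = 0.252).

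Srrm4 held 0 to 7 counts per library. The counts were 2, 0 and 0 in EV and again in shSmndc1, 0, 1, 0 and 0 in EV_RIP, 1, 7, 0 and 0 in the libraries labelled shSmndc1_RIP_neg, and 0, 2, 0 and 0 in positive cells. The 7 counts were in a library of 80757000. A count of 0 allows up to 3 counts, or 0.0294 to 0.361 CPM depending on depth, counting error only. Srrm4 did not pass the low-count filter and was not tested, so 9 of the 10 genes were.

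Rbfox2 (ENSMUSG00000033565, chromosome 15, 77078990 to 77307004, minus strand), which binds GCATG motifs beside alternative exons, was lower in shSmndc1 and in positive cells. It read 164, 154 and 143 CPM in EV and 126, 116 and 98.5 in shSmndc1, with no overlap and a mean 1.35-fold lower (log2 fold change -0.43, SE 0.13). In experiment 2 EV_RIP read 119, 109, 130 and 129 CPM and positive cells 106, 80.5, 84.9 and 92.3. The groups did not overlap. Rbfox2 fell in positive cells (log2 fold change -0.42, SE 0.12, edgeR adjusted p = 0.0266). Leaving out any 1 library other than EV_RIP 2 or positive replicate 1 raised the adjusted p above the threshold (highest 0.0894, log2 fold changes -0.51 to -0.36 over all 8 omissions). Replicates 1 to 4 labelled shSmndc1_RIP_neg read 124, 98.3, 99.3 and 95.1 (log2 fold change -0.22, edgeR adjusted p = 0.196; -0.32 and 0.0382 without replicate 1). Replicate 1, the library of that group with the least Ptbp1, had the most Rbfox2. Positive cells were below negative cells in 4 of 4 pairs, a difference of -0.2 that did not pass in the paired fit (SE 0.08, edgeR adjusted p = 0.168).

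Celf4 (ENSMUSG00000024268, chromosome 18, minus strand), a CUG-binding protein of excitable cells that also acts on mRNA stability, was lower by more. It read 64.3, 102 and 73.6 CPM in EV and 50.2, 42.1 and 40.1 in shSmndc1, with no overlap and a mean 1.81-fold lower (log2 fold change -0.86, SE 0.18). EV_RIP libraries had 42.5, 33.4, 43.4 and 60.3 CPM of Celf4, set against 27.9, 20, 32.5 and 24.4 in positive cells, which lay below all controls. Celf4 fell 1.71-fold there (log2 fold change -0.78, SE 0.19, edgeR adjusted p = 0.0173). The call was lost without positive replicate 2 (-0.66, edgeR adjusted p = 0.0633). The libraries labelled shSmndc1_RIP_neg, at 37.9, 33.7, 52.6 and 36.3 CPM, stayed within the range of the controls (log2 fold change -0.17, edgeR adjusted p = 0.568). In the paired fit Celf4 was lower in positive cells in 4 of 4 pairs (log2 fold change -0.61, SE 0.1, edgeR adjusted p = 0.00241), and pairs 1 and 2 alone gave -0.59 (edgeR adjusted p = 0.0751).

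The NOVA genes encode proteins that bind YCAY motifs, and their 2 members moved apart. Nova1 (ENSMUSG00000021047, chromosome 12, 46694517 to 46818929, minus strand) read 32.4, 37.1 and 32 CPM in EV and 24.6, 22.9 and 14.5 in shSmndc1, without overlap (log2 fold change -0.71, SE 0.19). Control libraries of experiment 2 had 21.7, 30.4, 30.2 and 33.2 CPM of Nova1, and positive cells had 20.2, 23.2, 19 and 23.5. EV_RIP replicate 1 lay among the positive libraries, so the groups overlapped. Nova1 passed by a narrow margin (log2 fold change -0.43, SE 0.14, edgeR adjusted p = 0.0494), and it missed the threshold on leaving out any 1 library other than EV_RIP 1 (-0.52 to -0.34 over all 8 omissions, adjusted p up to 0.127). Nova1 lay between in the libraries labelled shSmndc1_RIP_neg, at 22.3, 25.4, 26.8 and 27.9 CPM (log2 fold change -0.18, edgeR adjusted p = 0.402). Gm33869 overlaps 3.54% of the exonic bases of Nova1 on the same strand.

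Nova2 (ENSMUSG00000030411, chromosome 7, 18925888 to 18965319, plus strand) read 28, 19.5 and 21.5 CPM in EV and 24.8, 26 and 48.8 in shSmndc1. One library, replicate 3, carried most of that difference and the groups overlapped (log2 fold change 0.53, SE 0.26; 0.14 without it). In experiment 2 the groups were tight. EV_RIP read 14.4, 16.8, 14.9 and 15.9 CPM, the libraries labelled shSmndc1_RIP_neg 19.4, 22.3, 19.7 and 19.9, and positive cells 23.9, 20.7, 23.3 and 19.4. Both sorted groups lay above every control. Nova2 rose in positive cells (log2 fold change 0.49, SE 0.12, edgeR adjusted p = 0.0132), and this held on leaving out each of the 8 libraries (0.44 to 0.54). It also rose in the libraries labelled shSmndc1_RIP_neg (0.39, SE 0.12, edgeR adjusted p = 0.039), where the call was kept only without EV_RIP 2 or without replicate 1 of that group (adjusted p up to 0.127). Without libraries 3 and 4, those with most Rn7sk, the value there was 0.42 (edgeR adjusted p = 0.25). Positive and negative cells did not differ past the threshold (paired log2 fold change 0.1, SE 0.11, edgeR adjusted p = 0.653). Gm26821, not analysed here, covers 31.7% of the exonic bases of Nova2 on the opposite strand, and its part in these values was not tested.

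Elavl4 (ENSMUSG00000028546, chromosome 4, 110203722 to 110351909, minus strand), the neuronal HuD protein that binds AU-rich RNA, differed within the sort more than against the controls. It read 41, 63.1 and 61.8 CPM in EV and 55.7, 54.5 and 57 in shSmndc1 (log2 fold change 0.01, SE 0.17). The groups of experiment 2 had 44, 46.5, 53.8 and 43.4 in EV_RIP, 55.8, 33.7, 36.9 and 37 in the libraries labelled shSmndc1_RIP_neg, and 71.6, 55.4, 59.1 and 49.9 in positive cells. Positive cells overlapped the controls through replicate 4 and did not pass against them (0.33, 95% interval -0.01 to 0.67, edgeR adjusted p = 0.155). The libraries labelled shSmndc1_RIP_neg did not pass either (-0.2, edgeR adjusted p = 0.403; -0.39 and 0.0349 without replicate 1). Within pairs Elavl4 was higher in positive cells in 4 of 4 (log2 fold change 0.55, SE 0.1, edgeR adjusted p = 0.00432 in the paired fit), and pairs 1 and 2 alone gave 0.55 (edgeR adjusted p = 0.0789). Rbfox2, Celf4, Srrm3 and Elavl4 share no exonic base with another gene.

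**Figure D3:**
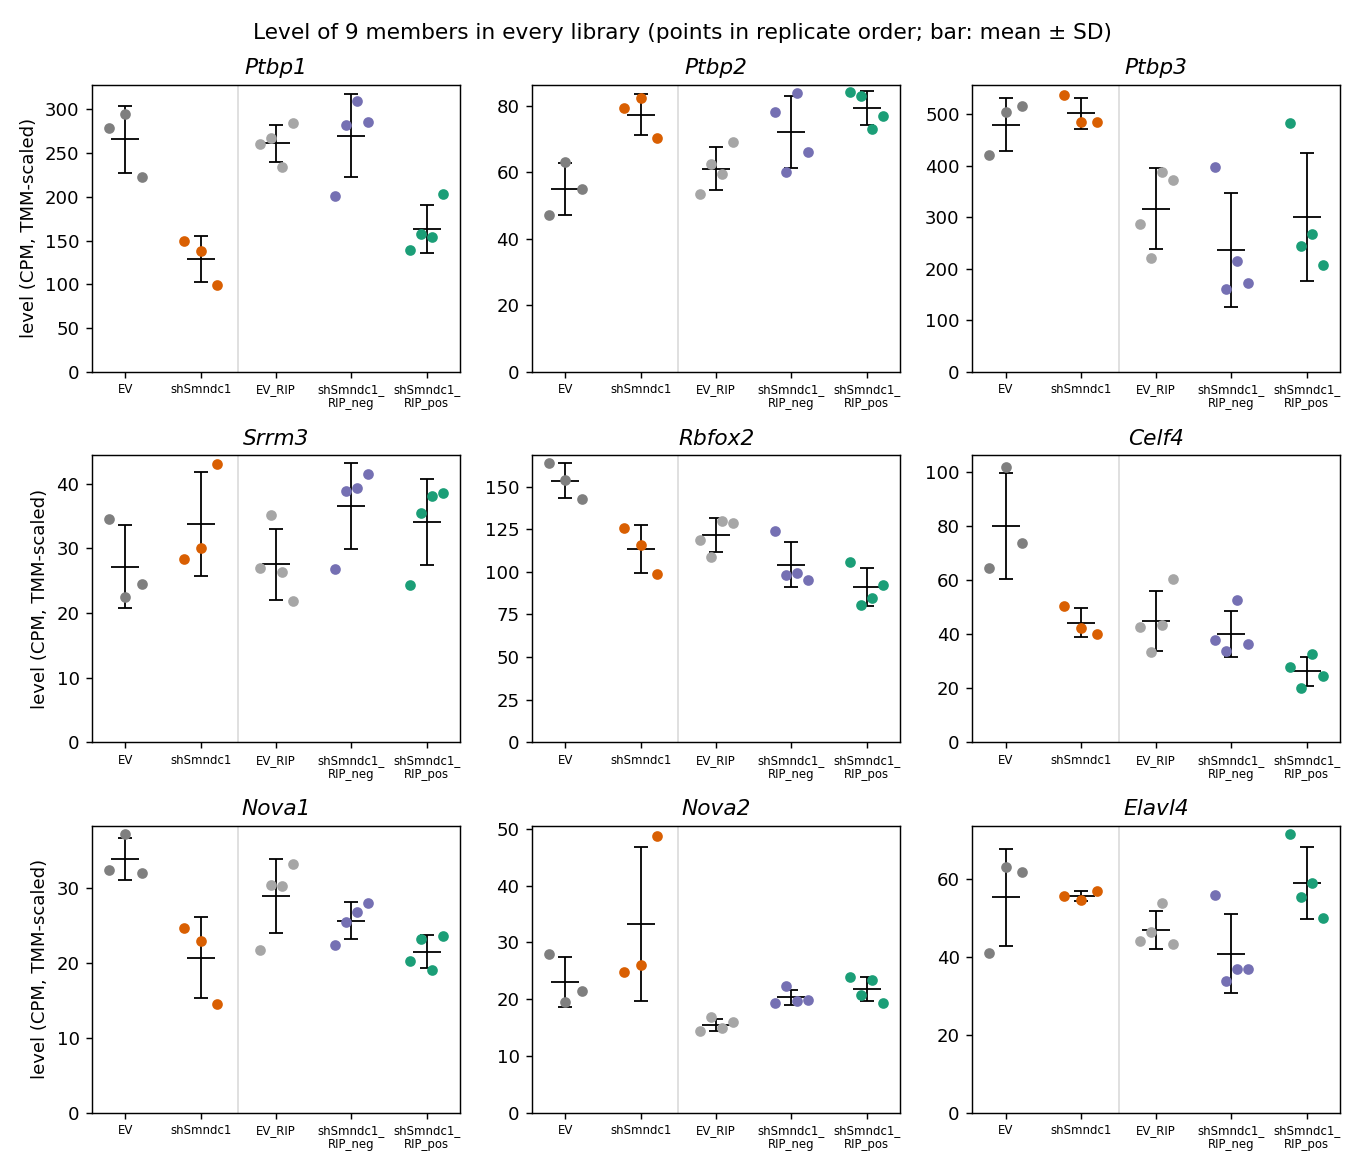
Level of the 9 tested genes (vertical axes, CPM from 0) in each of 18 libraries by group; points are libraries in replicate order, bars mean ± SD, and the grey line parts the experiments. Ptbp1 and Celf4 in positive cells sit below all EV_RIP libraries, Ptbp2 and Nova2 above them.

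By deposited FPKM, the regulators below Ptbp1 and Ptbp3 kept to a range of levels in which a few changed places. This order too depends on the gene lengths used. In EV it was Rbfox2 (21.1 ± 1.42 FPKM), Celf4 (19.1 ± 4.82), Elavl4 (11.5 ± 2.64), Ptbp2 (11.1 ± 1.67), Srrm3 (6.87 ± 1.61), Nova1 (4.7 ± 0.42), Nova2 (2.73 ± 0.511) and Srrm4 (0.00211, 2 counts in all). Rbfox2 overlapped Celf4, and Elavl4 overlapped Ptbp2, while the other neighbours did not overlap. In positive cells Ptbp2 (16.1 ± 1.07 FPKM, SD, n = 4) ranked next after Ptbp1 and Ptbp3, above Rbfox2 (12.5) and Elavl4 (12.3), whose ranges overlapped, and Celf4 (6.25) had dropped below Srrm3 (8.65) with overlap. Nova1 and Nova2, apart in EV_RIP at 4 and 1.84 FPKM, overlapped in positive cells at 3 and 2.6. The same pair changed order in shSmndc1, where Nova2 averaged 3.9 FPKM and Nova1 2.85, with overlap.

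In the paired fit of sorted cells 1517 of 17994 genes passed (8.43%), with 3.71% higher and 4.72% lower in positive cells. Ptbp3 and Elavl4 were among the higher and Ptbp1 and Celf4 among the lower. From pairs 1 and 2 alone, 0 of the 9 genes passed in edgeR, and 44 genes were higher and 48 lower in all.

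**Figure D4:**
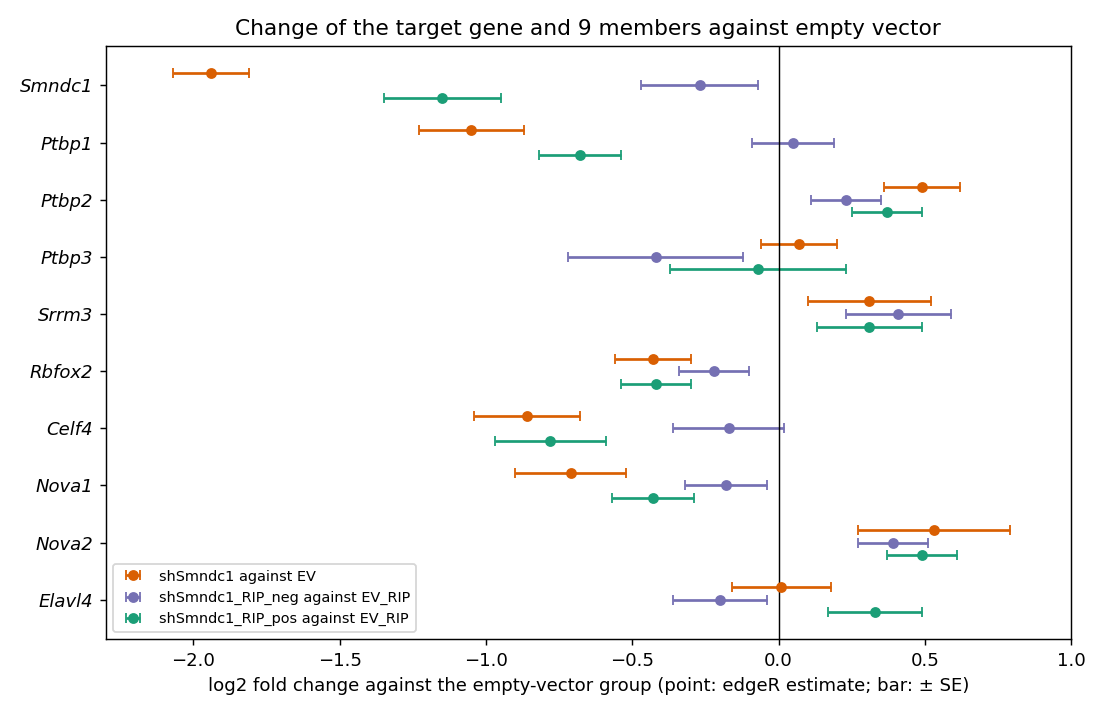
Log2 fold change (horizontal axis) of Smndc1 and the 9 tested genes against the empty-vector group of the same experiment; points are edgeR estimates and bars ± SE. Ptbp1 lies at -1.05 in shSmndc1 and -0.68 in positive cells but at 0.05 in the libraries labelled shSmndc1_RIP_neg, and Ptbp2 lies right of 0 in all 3.

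Transcripts that PTBP1 is known to hold down, by skipped exons or retained introns, were read next. The 7 tested had a median of 0.28 on the log2 scale in positive cells, against 0 for all genes, and 0.13 in the libraries labelled shSmndc1_RIP_neg, against -0.01. The 7 include Ptbp2, whose rise in experiment 1 was among the values that chose the set, so the list is not independent of that choice. In positive cells 0 of the 7 fell in edgeR, and of the 6 described here Ptbp2 alone rose, where 8.47% of all genes rose and 8.92% fell. Dlg4, the gene of PSD-95 and a classic PTBP1 target, was at -0.37 there (edgeR adjusted p = 0.0507), and Gabbr1, a GABA receptor subunit, at -0.45 (edgeR adjusted p = 0.0541). Both had an unadjusted p under 0.05, as did Vamp2, a synaptic vesicle SNARE protein, in the other direction (0.36, edgeR adjusted p = 0.109). The share of all genes at that unadjusted cut is not given for positive cells, so nothing is read from it. Sv2a, a synaptic vesicle protein, was at 0.28 (edgeR adjusted p = 0.253) and Kif5a, a neuronal kinesin, at 0.26 (edgeR adjusted p = 0.274). In the libraries labelled shSmndc1_RIP_neg 0 of the 7 passed in edgeR (13.9% of all genes), and 3 had an unadjusted p under 0.05, with Dlg4 and Gabbr1 lower and Vamp2 higher. The share of all genes at that unadjusted cut is not given here, so nothing is read from the 3. In experiment 1 the list had 3 of 7 past the threshold, all upward: Ptbp2, Sv2a (0.57) and Kif5a (0.38), where 7.22% of all genes were past it upward. Because Ptbp2 is among these 3 and helped choose the set, that count is no test. Dlg4 lay the other way there, at -0.62.

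Granule transcripts that PTBP1 is known to stabilise in beta cells included 3 that fell in both sorted groups. Ptprn, a granule membrane protein, read 1100, 898, 1070 and 1540 CPM in EV_RIP, while positive cells had 574, 481, 496 and 425 (log2 fold change -1.22, SE 0.2, edgeR adjusted p = 0.00289). Pcsk2, the convertase that processes prohormones (-1.17, edgeR adjusted p = 0.00382), and Chga, chromogranin A (-0.67, edgeR adjusted p = 0.00538), fell too. In the libraries labelled shSmndc1_RIP_neg the same 3 were at -0.95, -0.96 and -0.65 (edgeR adjusted p = 0.0144, 0.0148 and 0.0124). Whether PTBP1 had a part in these changes was not tested. Of all genes, 5.69% fell in those libraries. Ins2 and Ins1, of the same list, rose in positive cells, the cells sorted by an insulin promoter, from 1.74 to 10.1 CPM and from 0.0292 to 0.938 CPM (edgeR adjusted p = 0.00701 and 0.0142). Reads of these near-identical genes may be split, and a fold of so low a gene as Ins1 depends on the prior count. Pcsk1 was at or near 0 counts and was not tested. Of the 5 tested 2 thus rose and 3 fell in positive cells (8.47% and 8.92% of all genes), with a median of -0.67 against 0 for all genes. In experiment 1, 4 of the list were tested, of which Ins2 was past the threshold upward and Ptprn, Pcsk2 and Chga downward (median -0.78). Of all genes there, 7.22% were past it upward and 7.5% downward.

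Among 24 other neuronal and muscle-type splicing regulators, 21 were tested. In positive cells 3 of the 21 rose and 3 fell (median 0.01), where 8.47% of all genes rose and 8.92% fell. Qk, which encodes quaking, an RNA-binding protein of glia and muscle, rose most clearly: 44.8, 63.4, 53.1 and 50.8 CPM in EV_RIP became 138, 122, 89.4 and 89.8 (log2 fold change 1.05, SE 0.15, edgeR adjusted p = 0.00175). Qk had also been higher in shSmndc1 (161 to 192 CPM against 62.5 to 102). Srrm2 (0.56) and Srrm1 (0.44), broad splicing coactivators related to Srrm3, rose as well, and both rose in the libraries labelled shSmndc1_RIP_neg (0.63 and 0.66). Elavl2, a neuronal relative of Elavl4, fell in positive cells (-0.64, edgeR adjusted p = 0.0212) and in the libraries labelled shSmndc1_RIP_neg (-0.57, edgeR adjusted p = 0.0382). Khdrbs2 (-0.67) and Celf6 (-0.55) fell in positive cells. In the libraries labelled shSmndc1_RIP_neg Celf5 rose (1.16), so 3 of the 21 rose and 1 fell (median -0.16), where 8.17% of all genes rose and 5.69% fell. In experiment 1 Qk was past the threshold upward and Celf6, Rbfox1, Elavl3 and Khdrbs2 downward (median -0.03), where 7.22% of all genes were past it upward and 7.5% downward.

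Of 17 tested partners of PTBP1 and other pyrimidine-tract binding proteins, 0 rose and 1 fell in edgeR in positive cells, where 8.47% of all genes rose and 8.92% fell. That one was Nono, a paraspeckle protein (-0.39, edgeR adjusted p = 0.0171), which also fell in the libraries labelled shSmndc1_RIP_neg (-0.32, edgeR adjusted p = 0.043). In positive cells Cpeb1 (0.34) had an unadjusted p under 0.05 upward, and Pcbp3 (-0.29) and Tia1 (-0.36) downward. Of the 17, 8 had one in the libraries labelled shSmndc1_RIP_neg, of which Pcbp1 alone was higher, and 0 rose and 1 fell after adjustment (8.17% and 5.69% of all genes). The share of all genes at the unadjusted cut is not given for these groups against EV_RIP, so the 8 are not read as a shift. In experiment 1 only Tia1, a U-rich RNA binding protein, was past the threshold, at -0.57 (14.7% of all genes in either direction). Medians of this list lay between -0.21 and -0.07 over these comparisons.

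Rest, the repressor of neuronal genes in other tissues and itself a target of SRRM4, was at 0 to 0.437 CPM per library and was not tested. Of 8 tested corepressors, Hdac1 fell in positive cells (-0.56, edgeR adjusted p = 0.0148) and in the libraries labelled shSmndc1_RIP_neg (-0.54, edgeR adjusted p = 0.0219), and Rcor2 rose in positive cells (0.39, edgeR adjusted p = 0.0495). That is 1 of 8 each way in positive cells and 1 of 8 downward in the others, where 17.4% and 13.9% of all genes passed in either direction. In experiment 1 none of the 8 was past the threshold in edgeR (14.7% of all genes), with Hdac1 at -0.73 and Rcor2 at 0.32.

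Across all 18 libraries, with each experiment centred on its own mean, Nova1 (Pearson r = 0.86), Celf4 (0.78) and Rbfox2 (0.65) followed Ptbp1, and Nova2 (-0.65), Ptbp2 (-0.63) and Elavl4 (-0.61) ran against it. Among the 10183 genes compared, these values stood at percentiles 99, 96.6, 90.4, 8.4, 9.63 and 10.4, in that order. Values as far out as those of Rbfox2, Nova2, Ptbp2 and Elavl4 were thus not rare among all genes. Ptbp3 (-0.35) and Srrm3 (-0.18) were closer to 0. For 3 genes the experiments differed widely: Elavl4 was at -0.17 in experiment 1 and -0.9 in experiment 2, Rbfox2 at 0.98 and 0.38, and Srrm3 at -0.63 and 0.15. These correlations of log2(CPM + 1) share the grouping of the libraries, include experiment 1, whose values chose the set, and are given as a description. Among 10183 genes compared, those most like Ptbp1 were Plppr3 (0.98), Fbxl14 (0.94), Xrn2 (0.93), Ccndbp1 (0.93) and Coro2a (0.93). Plppr3 is the neighbour whose exons overlap those of Ptbp1 on the other strand. Those least like it were Fam78b (-0.96), Pcdh1 (-0.95), Fkbp9 (-0.95), Rnd2 (-0.94) and Adgra2 (-0.94). Fbxl14, for example, averaged 34.4 ± 2.36 CPM in EV_RIP and 20.7 ± 4.84 in positive cells, and Fam78b 4.95 ± 0.462 and 8.78 ± 1.71 (SD, n = 4 each).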

How the data were processed

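The authors deposited, per experiment, a table of raw counts per gene and a table of FPKM, with 1 column per library. The deposited FPKM could be rebuilt from the counts with a constant length for each gene and DESeq2-type size factors, to within 1.8e-15 on a log scale over 16361 and 14258 genes. Per the submitters' processing notes, the build was GRCm38/mm10 and the tools included DESeq2 1.30.0, Picard 2.19.2 and STAR 2.7.5a. Which step each tool did, what counted the reads and whether strand was used is not given in the sources used here. Per the labels' protocols, libraries were stranded mRNA libraries.

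The counts went into edgeR 4.0.16 (R 4.3.3): low genes were dropped by filterByExpr, library sizes were set by TMM, and glmQLFit with glmQLFTest gave p-values, adjusted by Benjamini-Hochberg over all genes tested (threshold 0.05). Experiment 1 (6 libraries) and experiment 2 (12 libraries, its 3 groups sharing one spread) were fitted separately. Alternatives were DESeq2 1.42.0, its size factors, no filter, 2 groups only, the replicate number as a block, and leaving out libraries. The fit was tested on simulated data, in which 67 genes were changed 1.5-fold and 67 changed 2-fold, all of at least 5 CPM. For shSmndc1 against EV it recovered 32.8% of the 1.5-fold and 89.6% of the 2-fold changes, with 18202 genes simulated. For shSmndc1_RIP_pos against EV_RIP it recovered 50.7% and 92.5%, with 18897 simulated. The simulated spread followed the trend over genes, so these shares do not cover weaker or more variable genes.

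Same-numbered negative and positive libraries had correlations of 0.14 to 0.62. EV_RIP 1 and 2 also went with the libraries of their number, at 0.28 and 0.49 with negative and 0.26 and 0.43 with positive. EV_RIP 3 and 4 did not (-0.2 and -0.29 with negative, -0.03 and -0.05 with positive). EV with shSmndc1 ranged from -0.03 to 0.26. The pairing rests on the replicate numbers, since the labels do not name a shared culture. The check does not single out the sorted pairs, and every paired p-value depends on that pairing.

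The members and the 5 gene lists were chosen with earlier results of these data known. Genes named besides the members were Smndc1, up to 4 genes per list and comparison past the threshold with the smallest p, and the 5 highest and 5 lowest correlations with Ptbp1 among genes of at least 5 CPM. Dlg4, Gabbr1, Vamp2, Cpeb1, Pcbp1, Pcbp3, Pcsk1 and Rest were named after their values were seen. Some genes of the lists and markers are not reported here. Positions, exons and overlaps were read from GENCODE annotation of GRCm38. Intervals are at 95%.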

Additional observations from a re-analysis of the deposited data

Results flagged for a closer look

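In 3 of 27 groups of 4 libraries checked, for the 9 tested genes in the groups of experiment 2, 1 library lay far from the rest by Dixon's criterion, which chance alone meets in about 1 in 20 groups. All were in the group labelled shSmndc1_RIP_neg. Rbfox2 was at 124 CPM in replicate 1, against 95.1 to 99.3 in the others. Elavl4 was at 55.8 CPM in the same library, against 33.7 to 37. Nova2 was at 22.3 CPM in replicate 2, against 19.4 to 19.9. Replicate 1 was also the library of its group with the least Smndc1 (23.9 CPM) and the least Rn7sk (4.53 CPM).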

How the results depend on the processing

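Of 477 values of the 9 genes under alternatives, 401 kept direction and side of the threshold, 45 lost the call, 18 gained one and 13 changed sign; the cause was not tested. Ptbp1 in positive cells against EV_RIP kept its call in all 13 alternatives (-0.81 to -0.61). Replicates left out in turn gave the ranges below. In shSmndc1 against EV, genes higher ranged from 71 to 1547 and lower from 110 to 1789, and members higher from 0 to 1 and lower from 1 to 4. The smallest came from leaving out replicate 3 of EV (71 and 110), replicate 2 of EV (249 and 301) or replicate 2 of shSmndc1 (337 and 290). For the libraries labelled shSmndc1_RIP_neg against EV_RIP the ranges were 127 to 3036 and 32 to 2795 genes, lowest without replicate 4 and highest without replicate 1 of that group, and 0 to 2 and 0 to 3 members. For positive cells against EV_RIP they were 646 to 1811 and 612 to 1775 genes, and 1 to 2 and 1 to 3 members. Between positive and negative cells they were 0 to 220 and 0 to 297 genes, and 0 to 1 members either way, highest without negative replicate 1, where Ptbp1 was at -0.83 (edgeR adjusted p = 0.00721). Leaving out 1 library moved Ptbp1 between -0.03 and 0.16 in the libraries labelled shSmndc1_RIP_neg against EV_RIP and between -0.84 and -0.65 between positive and negative cells. It moved Elavl4 (-0.18 to 0.11) and Ptbp3 (-0.03 to 0.11) in shSmndc1, Ptbp3 in positive cells against EV_RIP (-0.4 to 0.06), and Srrm3 between positive and negative cells (-0.22 to 0.03) across 0.

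Without the low-count filter 2024 genes were higher and 2141 lower in shSmndc1, with 2 members higher and Elavl4 at -0.01. In the libraries labelled shSmndc1_RIP_neg 1700 genes were lower, 0 members passed upward and Ptbp1 was at -0.02. In positive cells 0 members were higher than in EV_RIP, and against negative cells 39 genes were higher and 111 lower with 1 member lower, Ptbp1 (-0.7, edgeR adjusted p = 0.0117). DESeq2 called 2441 genes higher in the libraries labelled shSmndc1_RIP_neg, and 110 higher and 205 lower between positive and negative cells, with 1 member lower, Ptbp1 (-0.72, DESeq2 adjusted p = 0.00357). With only the groups compared, the libraries labelled shSmndc1_RIP_neg gave 843 and 446 genes and 0 members higher. Without negative libraries 3 and 4 they gave 4 and 0 genes and 0 members, with Ptbp1 at -0.12, and Srrm3 between positive and negative cells was at 0.05.

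With the replicate block the libraries labelled shSmndc1_RIP_neg gave 2421 and 2176 genes and positive cells 2508 and 2571 against EV_RIP. Between positive and negative cells the block gave 22 and 56 genes and 1 member lower, Ptbp1 (-0.72, edgeR adjusted p = 0.0438). Paired fits of the sorted libraries alone, added after seeing the data, gave 667 and 850 genes with 2 members each way, and 44 and 48 genes from pairs 1 and 2. In shSmndc1 the block left Ptbp1 at -1.06. Negative library 3, at 8084600 counts, limits what can be seen of weakly expressed genes such as Srrm4.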
